A study of Mus musculus with 4 samples.

Results

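The miR-99 family, which includes miR-100, and the miR-125 family were followed by quantitative PCR in mouse lung through 6 of the 750 miRNA assays of the series. They are mmu-miR-99b, mmu-miR-125a-5p and mmu-miR-125a-3p, which come from one genomic locus (the miR-99b locus), and mmu-miR-99a, mmu-miR-100 and mmu-miR-125b-5p, which come from other loci. The prefix for mouse is left out below. Of these, 5 were matched by the miRBase name in the deposited table. The table cuts the name of miR-125b-5p short, and this 1 assay was matched by its assay name and accession. The 4 groups were adult mice in hyperoxia, adult mice in room air, neonatal mice in hyperoxia and neonatal mice in room air, with 1 library each. Adults were 2 months old. Newborns were less than 12 h old at the start and 3 days old at collection. Each exposure lasted 72 h, hyperoxia was 95% oxygen, and nursing dams were moved back and forth between the atmospheres. RNA came from the whole right lung after the pulmonary artery was flushed, so less RNA per cell and fewer cells of a type cannot be told apart. The labels give no genotype, strain, sex or number of animals per library.

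MicroRNAs are short RNAs that lower the output of messenger RNAs, which they recognise mainly through the seed, bases 2 to 8 from their 5′ end. The miR-99 family is one of the oldest in animals and in mammals represses mTOR and the IGF1 receptor, both drivers of growth. The miR-125 family is the vertebrate counterpart of worm lin-4, a timer of development, and represses Lin28, which in turn blocks let-7 maturation. In vertebrates the genes of a miR-99 or miR-100, a let-7 and a miR-125a or miR-125b lie together, and the mouse has 3 such loci.

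The mature sequences are shown because the assays must tell apart family members that share a seed and differ by few bases. They are from RefSeq (GRCm38.p6, 5′ to 3′), where all 6 members had an entry, with the seed in capitals. The 3p arms of miR-99b, miR-99a and both miR-125b hairpins follow, since the cards also hold assays for such passenger strands, the usually discarded arm of a hairpin.
miR-99b: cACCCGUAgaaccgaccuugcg
miR-99a: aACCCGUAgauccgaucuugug
miR-100: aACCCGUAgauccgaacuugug
miR-125a-5p: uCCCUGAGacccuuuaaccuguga
miR-125b-5p: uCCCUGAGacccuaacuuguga
miR-125a-3p: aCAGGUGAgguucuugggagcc
miR-99b-3p: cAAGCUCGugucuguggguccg
miR-99a-3p: cAAGCUCGuuucuaugggucu
miR-125b-1-3p: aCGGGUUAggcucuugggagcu
miR-125b-2-3p: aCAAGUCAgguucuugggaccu

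The miR-99 family members share the seed ACCCGUA with no other of the 1679 mature mouse miRNAs in the RefSeq table. Counted from 1 at the 5′ end, miR-100 and miR-99a differ by 1 substitution, A16U, with the base of miR-100 first. miR-100 and miR-99b differ by 4, namely A1C, U11A, A16C and U21C. miR-125b-5p has 22 bases and miR-125a-5p has 24, and their first 13 bases are identical. How far each assay also reads its near-identical relative was not measured here. The miR-125 seed, CCCUGAG, is carried by 5 mature miRNAs in that table, among them miR-351.

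The miR-99b locus lies at chr17:17830188-17830879 of GRCm38.p6, on the plus strand, and holds the hairpins of miR-99b, let-7e and miR-125a within 692 bases. It lies inside the span of the protein-coding gene Spaca6. The hairpins of miR-99a, let-7c-1 and miR-125b-2 spread over 47408 bases at chr16:77598936-77646343. That stretch begins beyond the annotated end of the non-coding RNA gene Mir99ahg. The hairpins of miR-100, let-7a-2 and miR-125b-1 spread over 50578 bases at chr9:41531425-41582002, inside the non-coding RNA gene Mir100hg. Exons and introns were not annotated in the table used. miR-125b-5p is made from hairpins of both the chromosome 16 and the chromosome 9 locus, and its assay cannot tell them apart.

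Values are log2 levels relative to snoRNA202, a small nucleolar RNA measured on the same card of assays, and subtracting one library from another gives a log2 ratio. Assays differ in efficiency, and levels are compared here between libraries and not between miRNAs. Each library had 468 to 507 miRNA assays with a threshold cycle (Ct) of 35 or below, and 426 assays were detected in all 4. The 6 members sit on the first card and crossed between cycles 14.9 and 25.4 in every library. Repeats existed only for 4 control RNAs spotted on each card. They gave a technical SD of a log2 difference of 0.95 for age in hyperoxia, 0.65 for age in room air, 0.33 for oxygen in adults and 0.26 for oxygen in newborns, which leaves out variation between animals. This SD includes the error of snoRNA202 and was kept unchanged under other references. Endothelial markers (4 of 4), epithelial markers (6 of 6) and leukocyte markers (4 of 4) were detected in every library. Liver miR-122 and the 3 brain markers summed to less than 0.001 of snoRNA202 in each.

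With age, members of the loci parted, while the other assays of the same loci were mixed. miR-99a, miR-100 and miR-125b-5p were higher in adult than in neonatal lung, by 2.5- to 4.5-fold in each atmosphere. miR-125a-5p was lower in both adult libraries, and miR-99b differed by less than the technical SD in both atmospheres.

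miR-99a, a repressor of mTOR, had a log2 level of -5.14 in adult hyperoxia and -5.23 in adult room air, against -6.83 in neonatal hyperoxia and -6.70 in neonatal room air. Both adult libraries lay above both neonatal ones, and within each age the libraries differed by less than the technical SD. The share of all assays whose ages did not overlap was not counted, here or for the assays below. Non-overlap alone therefore does not set any of them apart from the rest of the panel. The age difference was 1.69 in hyperoxia and 1.47 in room air.

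miR-100, its closest relative by sequence, stood at -5.06 in adult hyperoxia and -4.38 in adult room air, against -6.38 in neonatal hyperoxia and -6.54 in neonatal room air. The ages did not overlap. The adult library in room air was the highest, and its distance of 0.68 from adult hyperoxia was above the technical SD of 0.33, but hyperoxia minus room air was -0.008 with mean centring. The age difference was 1.32 in hyperoxia and 2.15 in room air, a 2.50-fold and a 4.45-fold rise over the neonatal level.

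miR-125b-5p, a repressor of Lin28, was at -3.41 in adult hyperoxia and -3.06 in adult room air, against -5.02 in neonatal hyperoxia and -4.89 in neonatal room air. Again both adult libraries were the high ones. The age difference was 1.61 in hyperoxia and 1.82 in room air.

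miR-99b was nearly level across the series. It was at -5.20 in adult hyperoxia and -4.99 in adult room air, against -4.83 in neonatal hyperoxia and -4.86 in neonatal room air. The ages did not overlap, but the age differences of -0.37 in hyperoxia and -0.13 in room air lay within the technical SD.

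miR-125a-5p, which shares its seed with miR-125b-5p, ran the other way. It was at -4.14 in adult hyperoxia and -3.93 in adult room air, against -1.41 in neonatal hyperoxia and -2.62 in neonatal room air. Both adult libraries lay below both neonatal ones, and neonatal hyperoxia was the highest. The age difference was -2.73 in hyperoxia and -1.31 in room air.

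miR-125a-3p, the other arm of the same hairpin, was at -12.11 in adult hyperoxia and -11.69 in adult room air, against -11.03 in neonatal hyperoxia and -11.38 in neonatal room air. Its order over the libraries was that of miR-125a-5p, and both adult libraries again lay below both neonatal ones. The age difference was -1.08 in hyperoxia and -0.31 in room air, and the second of these was within the technical SD.

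**Figure D1:**
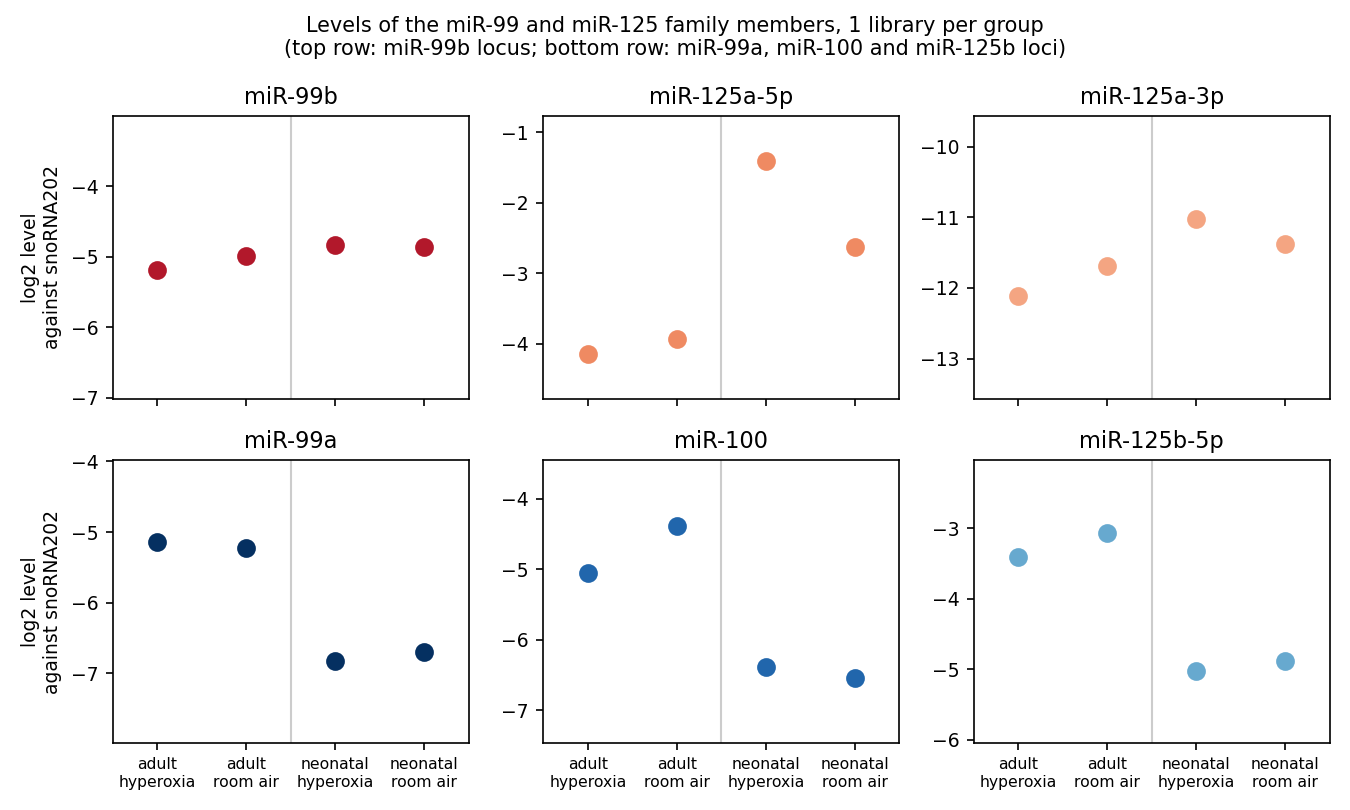
Log2 level against the same card's snoRNA202 (vertical axes, each spanning the same number of log2 units) of the 6 members in adult hyperoxia, adult room air, neonatal hyperoxia and neonatal room air (horizontal axis); each point is 1 library. The 3 members of the bottom row are higher in both adult libraries, and miR-125a-5p is lower in both, with its highest level of -1.41 in neonatal hyperoxia.

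At a limit of 2-fold, 3 of 6 members were higher in adult hyperoxia than in neonatal hyperoxia, where 10.9% of 450 assays were, and 2 were lower, where 49.3% of assays were. In room air 3 of 6 were higher in the adult, where 16.6% of 435 assays were, and 1 was lower, where 43.0% of assays were. The members' median age difference was 0.48 in hyperoxia and 0.67 in room air, beside medians of -0.98 and -0.57 over all assays in those pairs. With 1 library on each side these differences have no test.

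A limma fit with additive terms for age and oxygen, which takes the effect of oxygen to be equal at both ages, called 3 of 6 members higher in adults at a Benjamini-Hochberg adjusted p under 0.05, where 5.63% of the 426 assays were called higher. miR-125b-5p rose by 1.72 ± 0.30 log2 (SE; limma, adjusted p = 0.0347), miR-99a by 1.58 ± 0.30 (limma, adjusted p = 0.0397) and miR-100 by 1.74 ± 0.38 (limma, adjusted p = 0.0480). Against the deposited reference, which for 1 library takes snoRNA202 from another card, the value of miR-100 was equal and its adjusted p was 0.0608 (limma). No member was called lower, where 30% of assays were. By unadjusted p under 0.05, 4 of 6 members passed (limma), where 218 of the 426 assays did. The fourth member was miR-125a-5p.

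miR-125a-5p was at -2.02 ± 0.50 for age (limma, adjusted p = 0.0605), and it was called lower when only assays with a Ct of 32 or below were fitted (limma, adjusted p = 0.0429) or when the prior variance followed the level (limma, adjusted p = 0.0248). miR-125a-3p was at -0.70 ± 0.37 (limma, adjusted p = 0.228) and miR-99b at -0.25 ± 0.30 (limma, adjusted p = 0.558).

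The choice of reference shifted all 6 members together, and with them the number of assays called over the whole panel. Of the 426 assays, 24 were called higher with age and 128 lower against the same card's snoRNA202, 19 and 119 against the deposited reference, and 50 and 112 with snoRNA135 and snoRNA202 (limma). These counts were 99 and 77 after mean centring of the libraries, 136 and 84 after median centring of the cards, and 196 and 71 with U6 (limma). For age, miR-99a stood between 1.58 and 4.39, and miR-125b-5p between 1.72 and 4.53, under the 6 references tried, and both were called higher under all 6 (limma). miR-100 stood between 1.74 and 4.55 and was called under 5 of the 6. miR-99b stood between -0.25 and 2.57 and was called higher under 2, with each card centred on its median and with U6, so its direction followed the reference. miR-125a-3p stood between -0.70 and 2.12 and was called higher under 1, U6. miR-125a-5p stood between -2.02 and 0.79, above 0 with U6 only, and was called under none.

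**Figure D2:**
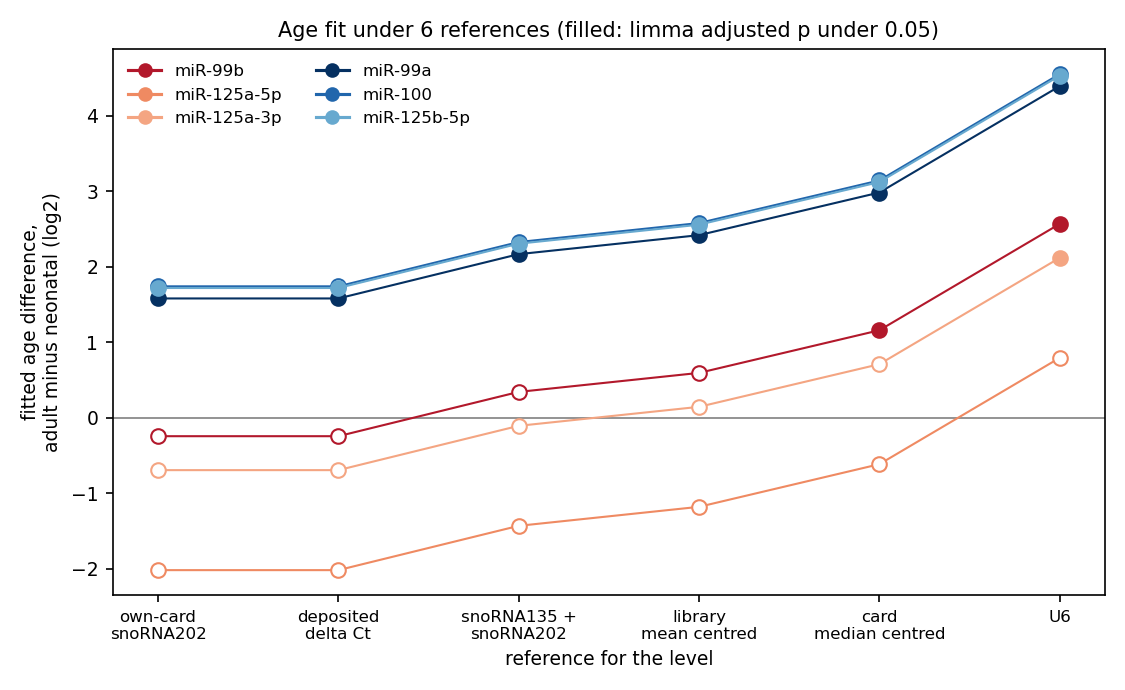
Fitted age difference, adult minus neonatal, in log2 units (vertical axis) of the 6 members under each of 6 references (horizontal axis); filled points have a limma adjusted p under 0.05. The lines run in parallel, miR-99a and miR-125b-5p are filled under all 6 references and stay at or above 1.58, and miR-125a-5p stays lowest throughout.

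Since the 6 members share a card, the reference cancels in a difference between them. The mean change of miR-99b and miR-125a-5p minus the mean change of miR-99a, miR-100 and miR-125b-5p was therefore the same under all 6 references. For age it was -3.09 in hyperoxia (-1.55 for the first mean and 1.54 for the second) and -2.53 in room air (-0.72 and 1.82), beside technical SDs of 0.95 and 0.65. Those SDs are for a single RNA against snoRNA202 and are not the error of this difference between means. Relative to the other loci, miR-99b and miR-125a-5p were thus 8.51-fold lower in adult hyperoxia than in neonatal hyperoxia, and 5.79-fold lower in adult room air than in neonatal room air. In all 6 pairings of one miRNA from each side, the miR-99b locus member had the lower age difference, in both atmospheres. These pairings reuse the same assays and libraries and are not independent. miR-125a-3p was left out of the first mean. With it added, the difference was -2.93 in hyperoxia and -2.40 in room air.

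The parting was present within each seed family. In the miR-99 family it was -1.87 in hyperoxia and -1.94 in room air. In the miR-125 family it was -4.34 in hyperoxia and -3.13 in room air. The log2 level of miR-125a-5p minus that of miR-125b-5p, which has meaning only as it changes between libraries, was -0.73 in adult hyperoxia and -0.87 in adult room air, against 3.61 in neonatal hyperoxia and 2.26 in neonatal room air. The log2 level of miR-99b minus that of miR-99a was -0.05 in adult hyperoxia and 0.24 in adult room air, against 2.00 in neonatal hyperoxia and 1.84 in neonatal room air.

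The miR-99b locus members did not move as one. miR-99b minus miR-125a-5p was -1.05 in adult hyperoxia and -1.06 in adult room air, against -3.42 in neonatal hyperoxia and -2.24 in neonatal room air. The adult libraries were thus alike in this gap and the neonatal ones were not.

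Passenger strands of the miR-99 hairpins, read on the second card, also parted with age. miR-99b* (the 3p arm of miR-99b) was at -8.75 in adult hyperoxia and -8.66 in adult room air, against -6.41 in neonatal hyperoxia and -6.41 in neonatal room air. An assay named for rat miR-99a* was at -8.79 in adult hyperoxia and -8.86 in adult room air, against -9.95 in neonatal hyperoxia and -10.10 in neonatal room air. Neither overlapped between the ages, and they moved in opposite directions. miR-99b* fell by 2.30 ± 0.30 log2 with age (SE; limma, adjusted p = 0.0195), and rat-named miR-99a* was at 1.20 ± 0.30 (limma, adjusted p = 0.0605). The adjusted p of miR-99b* was 0.0932 with each library centred on its mean (limma), and rat-named miR-99a* was called higher under 4 of the 6 references. The age difference of miR-99b* minus that of rat-named miR-99a* was -3.50 in both hyperoxia and room air.

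Other assays tied to these loci were less clear. Together with those 2 assays there were 11, of which 1 was called lower with age, where 30% of the 426 assays were, and 0 higher, where 5.63% were (limma, all assays adjusted together). let-7e, the middle gene of the miR-99b locus, was at -3.40 in adult hyperoxia and -2.24 in adult room air, against -1.61 in neonatal hyperoxia and -1.76 in neonatal room air (age fit -1.14 ± 0.47; limma, adjusted p = 0.153). Both adult libraries lay below both neonatal ones. let-7c, made in mouse from the miR-99a locus and a second hairpin elsewhere, was at 0.24 for age (limma, adjusted p = 0.608). let-7a, likewise made from more than one hairpin, was at -0.42 (limma, adjusted p = 0.488).

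The miR-125b-3p assay, whose human name ties it to the miR-125b-1 hairpin, was at -13.34 in adult hyperoxia and -13.68 in adult room air, against -14.73 in neonatal hyperoxia and -16.28 in neonatal room air. Both adult libraries were higher, and the lowest library crossed only at cycle 30.3. Its age fit was 2.00 ± 0.45 (limma, adjusted p = 0.0536), called higher under 4 of the 6 references. miR-125b* and an assay named for rat miR-125b*, whose hairpin the table does not name, gave no common age direction, at -0.33 (limma, adjusted p = 0.610) and 0.59 (limma, adjusted p = 0.385). In room air they differed by 0.91 from each other in the age difference. The let-7c-1* assay, specific to the miR-99a locus, was at -0.96 (limma, adjusted p = 0.0934), opposite to miR-99a. The remaining let-7* assays were at -0.010 for let-7a* (limma, adjusted p = 0.980) and 0.12 for rat-named let-7e* (limma, adjusted p = 0.843). The other let-7 family members, from other loci, lay between -2.05 and 0.36 for age, with 0 of 6 called (limma).

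**Figure D3:**
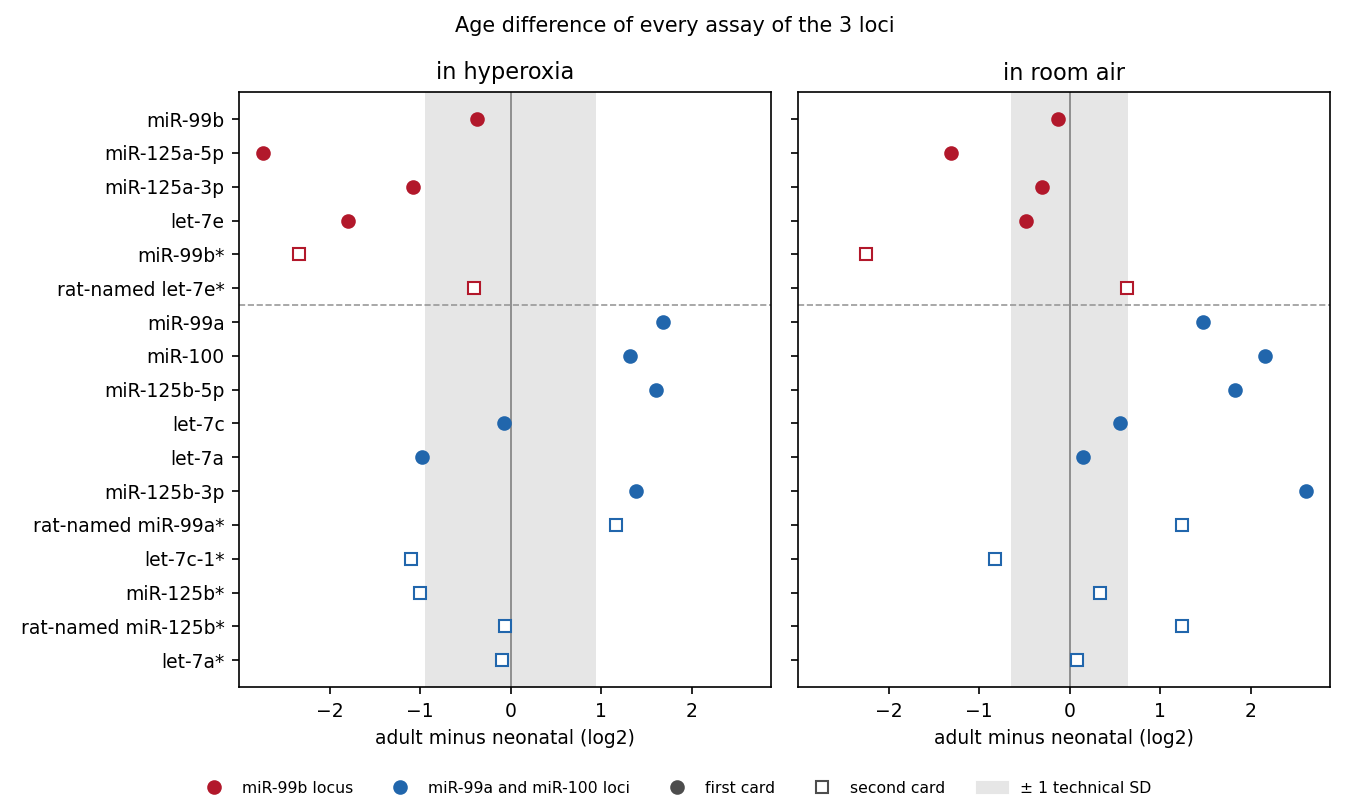
Adult minus neonatal difference in log2 units (horizontal axes) in hyperoxia (left) and room air (right) of each assay tied to the 3 loci (vertical axis); each point is a difference between 2 libraries, circles are on the first card, squares on the second, and the grey band is ± 1 technical SD. miR-99a, miR-100, miR-125b-5p, miR-125b-3p and rat-named miR-99a* lie right of 0 beyond the band in both panels, and miR-125a-5p, miR-99b* and let-7c-1* left of it.

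miR-351, an X-linked miRNA that shares the miR-125 seed, was added for that seed after its values were known. It was at -12.79 in adult hyperoxia and -13.04 in adult room air, against -6.21 in neonatal hyperoxia and -6.01 in neonatal room air, and fell by 6.81 ± 0.32 log2 (SE; limma, adjusted p = 0.00725). Of the 3 measured miRNAs with this seed, 1 was thus higher in adults, miR-125b-5p, and miR-351 was lower, while miR-125a-5p was lower without passing the test.

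Cell markers also differed with age. The smooth muscle miRNAs miR-143 and miR-145 (2 of 2 detected in each library) summed to 0.654 of snoRNA202 in adult hyperoxia and 0.717 in adult room air, against 0.378 in neonatal hyperoxia and 0.308 in neonatal room air. The fibroblast and mesenchyme miRNAs (3 of 3 detected) summed to 0.0710 in adult hyperoxia and 0.0946 in adult room air, against 0.254 in neonatal hyperoxia and 0.217 in neonatal room air. The first list was thus higher and the second lower in adults. The endothelial miRNAs (4 of 4 detected) summed to 8.90 in adult hyperoxia and 9.004 in adult room air, against 13.1 in neonatal hyperoxia and 9.67 in neonatal room air. This sum was lower in both adult libraries, though close in room air, and its members were not of one direction. In the age fit miR-126-5p was at 0.57, and miR-126, miR-139-5p and miR-218 were at -0.42, -0.83 and -1.85. The erythroid miRNAs (3 of 3 detected) summed to 0.0241 in adult hyperoxia and 0.0285 in adult room air, against 0.0289 in neonatal hyperoxia and 0.0450 in neonatal room air, with the 2 nearest libraries almost level. This list was not of one direction either. In the age fit miR-451 was at 0.51, and miR-144 and miR-486 were at -0.98 and -0.91. None of these lists was at 0 in a library, and their part in the age differences was not tested. The sums were taken against snoRNA202 only.

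Most members stayed within 2-fold after hyperoxia. These comparisons use the same 4 libraries as those of age, so the 2 sets of values are not independent. In newborns 1 of 6, miR-125a-5p, was at least 2-fold higher, where 13.6% of 469 assays were, and 0 were 2-fold lower, where 8.53% of assays were. In adults 0 of 6 were 2-fold higher, where 3.79% of 448 assays were, and 0 were 2-fold lower, where 8.26% of assays were. In the limma fit of oxygen over both ages, 0 of 426 assays were called in either direction (0% higher and 0% lower). By unadjusted p under 0.05 it had 13 of 426 assays and 0 of 6 members (limma).

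miR-125a-5p was at -1.41 in neonatal hyperoxia against -2.62 in neonatal room air, a difference of 1.21 (2.32-fold), beyond the technical SD of 0.26. In adults it was at -4.14 in hyperoxia against -3.93 in room air, a difference of -0.21, within the technical SD of 0.33. The other arm, miR-125a-3p, differed by 0.36 in newborns and by -0.42 in adults, beyond the technical SD under 4 of the 6 references in newborns and under 2 of the 6 in adults. In newborns miR-99b and miR-99a differed by 0.03 and -0.13, and miR-100 and miR-125b-5p by 0.16 and -0.14, all within the technical SD. In adults miR-100 was 0.68 lower in hyperoxia and miR-125b-5p 0.35 lower, and miR-99a, at 0.09, and miR-99b, at -0.21, were within it.

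These small oxygen differences followed the reference, while the neonatal difference of miR-125a-5p stayed between 1.01 and 1.21 under all 6. In adults miR-125a-5p ran between -0.21 and 0.46 and miR-99b between -0.21 and 0.46, each above 0 under 4 of the 6 references. Adult miR-125a-3p ran between -0.42 and 0.25, and adult miR-125b-5p between -0.35 and 0.32, beyond the technical SD under 2 of the 6. Adult miR-100 ran between -0.68 and -0.008, beyond it under 5, and adult miR-99a between 0.09 and 0.75, beyond it under 4. In newborns miR-99a and miR-125b-5p reached -0.33 and -0.34, beyond the technical SD under 2 of the 6.

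The same difference between the loci changed by 0.66 with hyperoxia in newborns and by 0.10 in adults. Within the miR-125 family the neonatal value was 1.35, and within the miR-99 family 0.02. In adults these values were 0.135 and 0.085.

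In newborns the 3 assays of miR-125b passenger strands were higher in hyperoxia, while their 5p partner was not. miR-125b* was at -11.17 in neonatal hyperoxia against -12.60 in neonatal room air, a difference of 1.43. Its rat-named counterpart was at -11.70 in neonatal hyperoxia against -13.18 in neonatal room air, a difference of 1.49. miR-125b-3p was at -14.73 in neonatal hyperoxia against -16.28 in neonatal room air, a difference of 1.56. All 3 were past 2-fold and beyond the technical SD, on both cards. In adults the same assays differed by 0.10, 0.19 and 0.34, and miR-125b-3p was just beyond the technical SD.

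Of the 11 assays tied to the loci these 3 were the ones at least 2-fold higher in neonatal hyperoxia, where 13.6% of 469 assays were. Each stayed past 2-fold under all 6 references. In adults let-7e was 1.16 lower in hyperoxia, the only one of the 11 past 2-fold in that pair, where 8.26% of 448 assays were lower. It was past 2-fold under 2 of the 6 references, and its difference ran between -1.16 and -0.50. The other let-7 family members, from other loci, were also lower in that pair. They ran from -0.10 for let-7i to -1.10 for miR-98 against snoRNA202, so a fall in adult hyperoxia was not particular to let-7e. The striated muscle list (5 of 5 detected) summed to 0.0746 of snoRNA202 in neonatal hyperoxia against 0.0318 in neonatal room air, and the epithelial list (6 of 6) to 1.18 in neonatal hyperoxia against 0.653 in neonatal room air. The erythroid list (3 of 3) summed to 0.0289 in neonatal hyperoxia against 0.0450 in neonatal room air. Their part in the differences after hyperoxia was not tested.

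**Figure D4:**
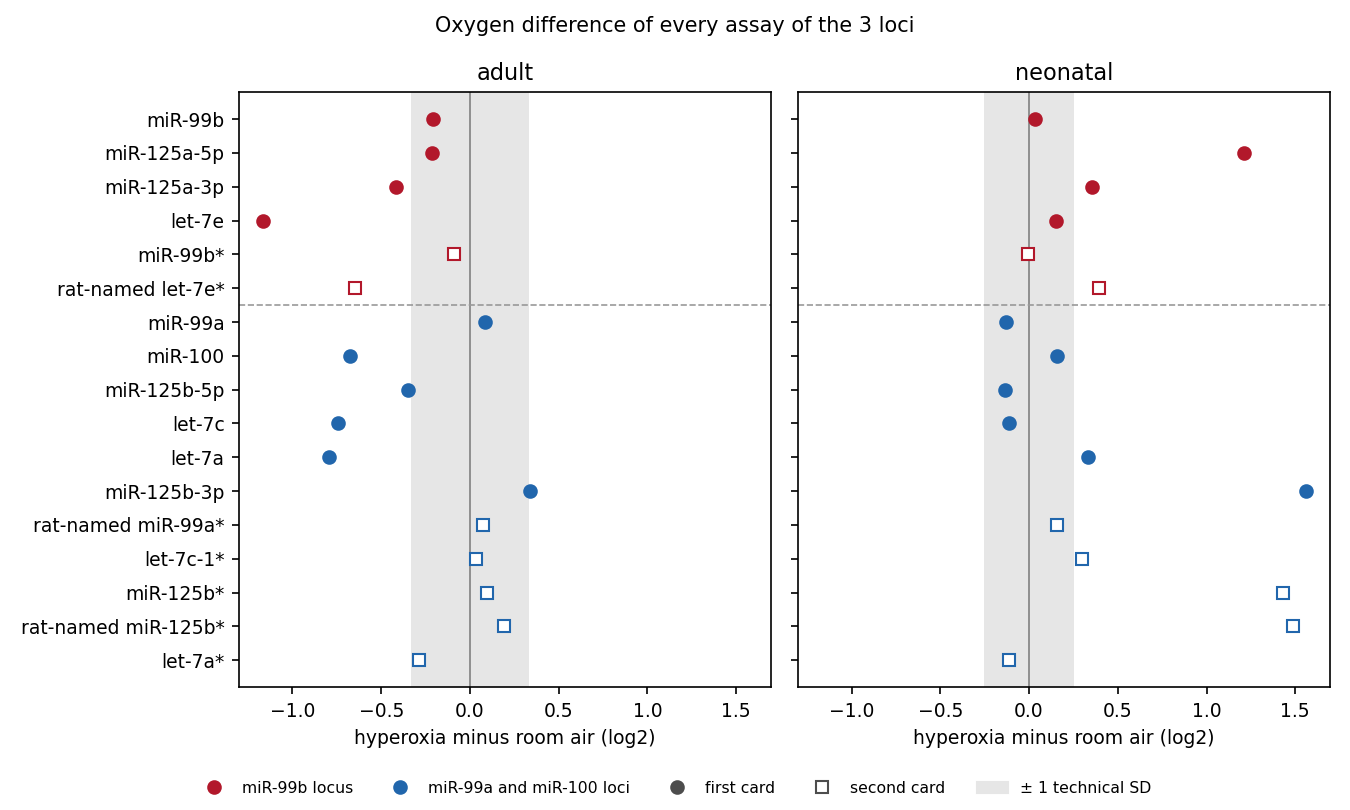
Hyperoxia minus room air difference in log2 units (horizontal axes) in adults (left) and newborns (right) of each assay tied to the 3 loci (vertical axis); each point is a difference between 2 libraries, circles are on the first card, squares on the second, and the grey band is ± 1 technical SD. In newborns miR-125a-5p, miR-125b-3p, miR-125b* and rat-named miR-125b* lie at 1.21 or more, and in adults let-7e lies lowest at -1.16.

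Likeness of pattern was measured as the root mean square distance over the 4 libraries between levels centred on their own mean, among 354 assays that crossed by cycle 30 in every library. The 5 nearest to the mean of miR-99a, miR-100 and miR-125b-5p were miR-664 (0.0676), miR-497 (0.120), miR-10b (0.178), let-7i* (0.178) and miR-21 (0.186). The 3 members themselves, which define that mean, lay 0.0417 to 0.153 from it. The 5 nearest to the mean of miR-99b and miR-125a-5p were miR-331-3p (0.0860), miR-199a-3p (0.0970), miR-20b (0.152), let-7c-1* (0.165) and miR-1897-5p (0.168). Each of those 2 members lay 0.490 from their mean, a distance that is equal for both by construction. The 5 assays were picked for nearness, so their smaller distances are no test. Among the assays named, miR-664, let-7i*, let-7c-1* and miR-1897-5p are on the second card and the members on the first. The reference does not cancel in those distances, which also hold the error of snoRNA202 between cards.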

How the data were processed

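Per the labels' protocols, lung RNA went through Megaplex reverse transcription, a preamplification and TaqMan assays. The authors deposited a Ct for each of 768 wells on 2 cards, and Ct minus that of snoRNA202, both on a log2 scale per the file headers. A well without a crossing holds 40. The software and its threshold are stated in none of the sources used here. Levels here are minus (Ct minus the same card's snoRNA202), for 750 miRNA assays; the 18 control wells were left out. Assays with a Ct of 35 or below were compared and called at 1 log2 unit. limma 3.58.1 (R 4.3.3) fitted age and oxygen additively, with 1 residual degree of freedom per assay, and was tested on simulated data. Each group holds 1 library, so the residual behind an SE or p-value is an assay's departure from additive effects, moderated over all assays. It holds no scatter between libraries of one group, and it may be technical. Nothing says how many animals a library holds. An error of the reference shifts a whole card. Its departure from additive effects enters the SE, but the part that follows age or oxygen does not. Members, lists and tests were chosen with earlier results of these data known. Named were the members, all other assays of their loci, and the 5 nearest patterns per side; miR-351 was added. Other references, a Ct limit of 32 and a trended prior were tried.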

Additional observations from a re-analysis of the deposited data

Results flagged for a closer look

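Each group holds 1 library, so no difference between 2 effects could be tested, and small values here may be technical. The oxygen difference had opposite signs in newborns and adults for 5 of the 6 members, beside 52.1% of the 426 assays detected in all libraries and 58.1% of the 236 such assays on the members' card. It had opposite signs for 4 members with U6 or with snoRNA135 and snoRNA202, and for 3 with mean or card median centring, and the opposite sign of miR-125a-5p was lost under those 4 references. The median over the first card was 0.235 in newborns and -0.293 in adults. Newborn minus adult, it was 1.42 log2 for miR-125a-5p, 0.83 for miR-100, 0.77 for miR-125a-3p, 0.24 for miR-99b and -0.22 for miR-99a. Among the other assays of the loci it was opposite in sign for let-7e (1.32), let-7a (1.13) and rat-named let-7e* (1.04). For the let-7 family members from other loci, newborn minus adult ran from 0.075 for let-7i to 1.83 for miR-98, with let-7f at 1.74.

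Against the same card's snoRNA202, the age difference had opposite signs in hyperoxia and room air for none of the 6 members. Hyperoxia minus room air, it was -1.33 for miR-125b*, -1.30 for rat-named miR-125b*, -1.13 for let-7a, -1.04 for rat-named let-7e*, -0.63 for let-7c and -0.17 for let-7a*, all with opposite signs in the 2 atmospheres. These differences were not tested. The share of all assays with opposite signs for age was not counted, so neither set can be placed against the panel.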

How the results depend on the processing

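No paired analysis was possible because each group holds 1 library and the labels give no shared replicate numbers. The differences between the loci did not depend on the reference. Restricted to one family they were -1.87 (miR-99) and -4.34 (miR-125) for age in hyperoxia, and 0.0185 and 1.35 for oxygen in newborns. Members called higher with age numbered 3, but 2 against the deposited reference, 4 with each card centred on its median and 5 with U6. Members called lower numbered 0, and 1 at a Ct of 32 or below and 1 with a trended prior; by single pairs at 2-fold, 1 was lower in room air and 2 in hyperoxia. For oxygen, 0 were called higher, against 1 at 2-fold in the neonatal pair.

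Directions turned as follows. With U6 the age fits became 2.57 for miR-99b, 0.79 for miR-125a-5p, 2.12 for miR-125a-3p, 1.67 for let-7e, 2.40 for let-7a, 0.88 for let-7a* and 0.56 for miR-125b*. The U6 age differences in hyperoxia and room air were 2.61 and 2.52 for miR-99b, 0.24 and 1.34 for miR-125a-5p, and 1.90 and 2.34 for miR-125a-3p. With each card centred the age fits were 1.16 for miR-99b, 0.71 for miR-125a-3p, 0.26 for let-7e, 0.99 for let-7a, 0.94 for let-7a* and 0.62 for miR-125b*. The pairs in hyperoxia and room air were then 1.30 and 1.02 for miR-99b, and miR-125a-3p in hyperoxia was 0.58. With mean centring the age fits were 0.59 for miR-99b, 0.14 for miR-125a-3p, 0.42 for let-7a, 1.42 for let-7a*, 0.46 for let-7c-1* and 1.09 for miR-125b*, and miR-125a-3p in hyperoxia was 0.17. With snoRNA135 and snoRNA202 the age fits were 0.34 for miR-99b, 0.17 for let-7a and 0.18 for let-7a*. In adults the oxygen difference of miR-125b-5p turned to 0.32 and that of miR-125a-3p to 0.25 with mean centring, and miR-100 was then at -0.008. Oxygen fits near 0 also turned: miR-99a to 0.0597 (U6), 0.0390 (cards), 0.23 (mean) and 0.0727 (both snoRNAs), miR-125a-3p to 0.0508, 0.0300, 0.22 and 0.0638, miR-99b to 0.16 (mean) and 0.0053 (both snoRNAs), and miR-125b-5p to 0.0090 (mean). The cause was not tested. Late assays, such as miR-125b-3p, have no repeat measurement.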
